A study of Mus musculus with 83 samples.

Results

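The effect of deleting Dnmt1 on small RNAs was followed in mouse embryonic stem cells (ESCs) from day 1 after the deletion, the earliest time sampled. The day 1 comparison holds 6 of the 83 small RNA libraries of the series, chosen by their titles: 3 control and 3 Dnmt1 KO libraries of the E14 background labelled day 1 without the suffix R1. The Dnmt1 KO cells derived from an ESC line with Dnmt1 loxP/loxP alleles, grown in serum with LIF, with or without feeder cells, in which tamoxifen induces Cre and Cre removes the floxed sequence. The labels give E14 as the background, whereas the methods name C57BL/6 as the strain of the floxed line, and which of them holds for these libraries is not settled here. The control libraries carry the genotype wildtype in the labels. No source used here says whether the control cells received tamoxifen or whether they carry the floxed alleles. Whether replicates were separate cultures is not given either, so p-values measure the spread between libraries. The limma fit used below took that spread from all 36 time course libraries, and the exact tests used the 6 day 1 libraries. The methods name 1 floxed line for the Dnmt1 KO cells, and the line of the control cells is not settled here.

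Small RNA reads were summarised by the authors over annotated features as RPKM. Each value was turned into RPM, the read count scaled to a fixed library total, with the span of the feature, and RPM is the level used throughout. The control libraries held 2064084, 2258712 and 870481 reads and the Dnmt1 KO libraries 3004708, 3731630 and 1474058 reads. The mean depth of the KO libraries was 1.58 times that of the controls, and the shallowest library was control replicate 3. In these libraries 1 read was worth between 0.268 and 1.15 RPM. Replicates correlated at 0.974 to 0.991 on the log2 scale over features, and no 2 libraries agreed within counting noise.

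Dnmt1 is the maintenance DNA methyltransferase, which copies methylation to the new DNA strand at replication. Short reads of a size-selected library come from several kinds of RNA. miRNAs are cut from hairpins and guide Argonaute proteins through their seed, the bases at positions 2 to 8. Small nuclear RNAs (snRNAs) are the RNA core of the spliceosome: U5 holds the exons together, U2 pairs with the branch point, U4 escorts U6 into the complex, and U11, U12, U4atac and U6atac serve the minor spliceosome. Small nucleolar RNAs (snoRNAs) guide the modification of ribosomal RNA, box C/D snoRNAs for methylation and box H/ACA snoRNAs for pseudouridylation, and most are cut out of introns of host genes. Reads of miRNA length from snRNA and snoRNA features are pieces of these RNAs and do not measure the full-length molecules.

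The mature miRNAs of the features that were lower in Dnmt1 KO follow, with the seed in capitals, from RefSeq (GRCm38.p6). No 2 of the 19 mature arms held by the called miRNA features share a seed.
mmu-miR-183-5p: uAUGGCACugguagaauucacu
mmu-miR-183-3p: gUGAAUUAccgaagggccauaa
mmu-miR-191-5p: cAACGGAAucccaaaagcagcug
mmu-miR-191-3p: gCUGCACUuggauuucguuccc
mmu-miR-148a-3p: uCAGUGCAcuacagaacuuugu
mmu-miR-99b-5p: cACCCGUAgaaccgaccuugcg
mmu-miR-27b-3p: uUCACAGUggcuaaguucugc
mmu-miR-141-3p: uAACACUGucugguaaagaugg
mmu-miR-30c-5p: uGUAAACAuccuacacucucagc
For the called miRNA features that were higher, RefSeq gave these arms.
mmu-miR-291b-3p: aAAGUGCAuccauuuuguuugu
mmu-miR-329-3p: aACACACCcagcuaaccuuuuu
mmu-miR-150-3p: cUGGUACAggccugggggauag
RefSeq entries were matched for all called features with a miRNA name except Mir151, and Mir150 matched for its 3p arm.

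A called feature of the miRNA class known only by a clone name, CT010508.1 on chr9:108470626-108470745 of the NCBIM37 genome, contains both arms of miR-191 on the strand opposite to its annotation. The arms are in capitals.
CT010508.1, strand opposite to its annotation: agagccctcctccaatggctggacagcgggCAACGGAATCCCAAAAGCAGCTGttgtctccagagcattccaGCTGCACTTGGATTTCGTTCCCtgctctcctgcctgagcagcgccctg
The other clone-named features called, all higher in Dnmt1 KO, contain no mature miRNA of the RefSeq table. Each is shown on its annotated strand, since its sequence is the only identity it has.
AC113316.1: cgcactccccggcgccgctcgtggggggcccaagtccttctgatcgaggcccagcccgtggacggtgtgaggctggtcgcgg
AL844840.2: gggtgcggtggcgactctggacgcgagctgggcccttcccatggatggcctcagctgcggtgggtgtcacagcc
AC154124.1: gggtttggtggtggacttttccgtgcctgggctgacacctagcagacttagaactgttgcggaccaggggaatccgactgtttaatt
AC113316.1 lies on chr5:147072579-147072660 inside Cdk8, AL844840.2 on chr2:72850911-72850984 and AC154124.1 on chr5:17282567-17282653. Their GC content is 74.4%, 70.3% and 52.9%.

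On day 1 small RNAs of the splicing machinery and of parts of the snoRNA class were higher in Dnmt1 KO, while some of the most abundant miRNAs and snoRNAs were lower. Of 2582 features tested, 98 were called at an adjusted p under 0.05 (3.8%), 74 of them higher (2.87%) and 24 lower (0.93%). These and all adjusted p-values below come from limma-trend on log2(RPM + 1) with Benjamini-Hochberg adjustment over all features tested. The median log2 fold change over all features was 0.02. Scaled by library totals in place of trimmed means, 102 of 113 calls were higher and the median of all features was 0.10, and with factors from all features 87 of 92 calls were higher with a median of 0.11. The libraries of the groups did not overlap for 97 of the 98 called features and for 523 of all tested (20.3%).

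The classes differed in how many of their features were called. snRNAs had 10 of 18 tested features called, all higher. snoRNAs had 31 of 234 called, 26 higher and 5 lower. miRNA features had 14 of 287 called, 6 higher and 8 lower. Protein-coding genes, whose reads come from anywhere in the gene body including small RNAs in introns, had 40 of 1897 called, 29 higher and 11 lower. No lincRNA of 70 and no mitochondrial tRNA of 14 was called, although 13 and 2 of them had an unadjusted p under 0.05 in limma.

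Direction varied with level, in bands of mean RPM chosen with the values known. Among the 153 features of at least 1000 RPM, 7 were higher and 14 lower, with a median log2 fold change of -0.09. Between 100 and 1000 RPM 33 of 328 were higher and 5 lower, and under 100 RPM 34 of 2101 were higher and 5 lower. The same held inside the snoRNA class, where 1 feature of at least 1000 RPM was higher and 4 were lower of 34 tested, against 12 higher and 0 lower of 110 under 100 RPM.

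**Figure D1:**
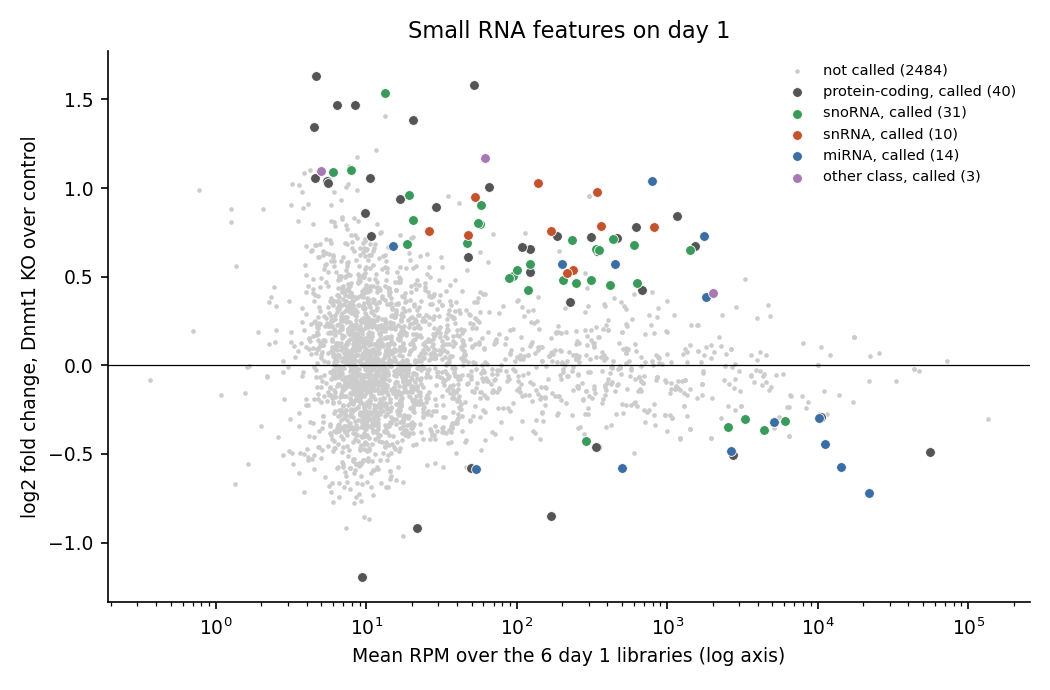
log2 fold change on day 1 (vertical axis, Dnmt1 KO over control, log2(RPM + 1) scale) against the mean RPM over the 6 libraries (horizontal log axis) for 2582 tested features, with the 98 called ones coloured by class. The called snRNAs all lie above 0, and most called features at the right end lie below 0.

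The number of calls depended on 2 libraries. Without control replicate 3 27 features were called and with Dnmt1 KO replicate 1 left out 32 were. Of the 98 called features, 26 remained without the former and 30 without the latter, including 5 snRNAs, 4 snoRNAs and 5 miRNA features in each case. 20 features were called whichever of the 6 libraries was left out. They are 4 gene copies of U5 (copies A, B, C and E, lettered by mean level), SNORD18, SNORD28 and Snora16a, the miRNA features AC113316.1, AL844840.2, AC154124.1, Mir183 and CT010508.1, and the genes Cdk8, Il1rapl1, Lin7c, Lancl2, Bai2, 2610528E23Rik, Filip1l and Chst11. Every other called feature lost its call without at least 1 library.

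Small RNA reads over the Dnmt1 gene itself (chr9:20711650-20757317) did not pass the test on day 1. They stood at 53.8, 54.9 and 46.0 RPM in the controls and 47.9, 37.8 and 36.6 RPM in Dnmt1 KO. The highest KO library lay above the lowest control, so the groups overlapped (log2 fold change -0.42, adjusted p = 0.306 in limma). An exact permutation test of the 3 and 3 libraries gave p = 0.2, two-sided, where the smallest possible p is 0.1. Short fragments over the gene do not measure its mRNA or the deletion.

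U5, the snRNA that contacts both exons during splicing, carried the largest snRNA signal and was higher in every Dnmt1 KO library. Summed over its 10 features, U5 reached 1545, 1475 and 1141 RPM in the controls and 2798, 2346 and 2258 RPM in Dnmt1 KO. The lowest KO library exceeded the highest control, and the KO mean was 1.78 times the control mean. 5 of the 7 tested copies, lettered A to G by mean level, were called, all higher. The copies are near-identical genes, so the split of reads between them is uncertain.

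U5 copy A, the most abundant, stood at 646.8, 634 and 446.9 RPM in the controls and at 1173, 1019 and 939.6 RPM in Dnmt1 KO. Its log2 fold change was 0.78 ± 0.13 (SE) with an adjusted p of 0.000178 in limma. Control replicate 3 was the low library of its group, and the call held without each library in turn. U5 copy C had the smallest adjusted p of any feature, 1.28e-06 in limma, with 263.1, 205.9 and 188.4 RPM in the controls and 535.5, 420.7 and 419.9 RPM in Dnmt1 KO. Its mean was 2.09 times that of the controls, and its adjusted p was 8.68e-05 without control replicate 3 and 0.000231 with Dnmt1 KO replicate 1 left out. Copy E stood at 106.6, 96.96 and 60.89 RPM against 222, 170.7 and 173 RPM, a log2 fold change of 1.03 (adjusted p = 2.45e-05, limma). Copies B and F rose by 0.78 and 0.73 on the log2 scale, and copy F lost its call without Dnmt1 KO replicate 1 (adjusted p = 0.11, limma). Copies D and G did not pass the test at log2 fold changes of 0.09 and 0.45. The difference between copies was not tested.

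Beyond U5, 5 more snRNA features were called, all higher. Of all 18 snRNA features tested, the 7 U5 copies and U7 included, 16 had a log2 fold change above 0 and the median was 0.64, against 0.02 over all features. U2 on chr12:60141322-60141512 rose by 0.95 and U2 on chr1:72272814-72273004 by 0.54 on the log2 scale (adjusted p = 0.00115 and 0.00984, limma), while the third tested U2 feature, on chr11:101466164-101466354, stood at -0.08 (adjusted p = 0.913, limma). U11 of the minor spliceosome stood at 185.6, 169.1 and 153.9 RPM in the controls and 311.8, 239.6 and 232 RPM in Dnmt1 KO, with no overlap (log2 fold change 0.52, adjusted p = 0.00434, limma). U4atac, which lies inside Clasp1, and U4 on chr5:115939468-115939608 both rose by 0.76 on the log2 scale, and the other tested U4 feature, at 0.42, did not pass (adjusted p = 0.598, limma). U12 and U6atac, at 0.36 and 0.51, did not pass the test, nor did U7, the snRNA of histone mRNA processing that is no part of the spliceosome, at -0.01. The 2 called U2 copies, U11, U4atac and the called U4 lost their call without control replicate 3 (adjusted p 0.0515 to 0.407), and U2 on chromosome 12 kept it without Dnmt1 KO replicate 1 (adjusted p = 0.0312) while the other 4 did not (0.176 to 0.299, all limma). Features named U1 and U6 did not reach the filter, and 1332 of 1423 snRNA features had no read in the 6 libraries.

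Added up, snRNA features took 2888, 2750 and 2180 RPM in the controls and 4559, 3956 and 3888 RPM in Dnmt1 KO. As a share of mapped reads that is 0.261% ± 0.0375 (SD, n = 3) against 0.413% ± 0.0370 (SD, n = 3), and the groups were apart. An exact two-sided permutation test gave p = 0.1, the smallest that 3 against 3 allows. Dnmt1 KO replicate 3 was shallower than control replicates 1 and 2, and control replicate 3, the shallowest library, had the lowest sum. The part of depth in the difference was not tested.

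Set beside the other days of the same series, it was the day 1 controls that stood apart. Control sums of snRNA reads ran from 4620 to 6157 RPM over days 3 to 25, and those of Dnmt1 KO from 3498 to 6366 RPM. All 3 day 1 controls lay below every other library of the time course, and the 3 day 1 KO libraries lay within the range of the later KO libraries. U5 alone showed the same order, with day 1 controls at 1141 to 1545 RPM and all other libraries at 2149.9 RPM or more. The order of the groups changed over the days. On days 3, 6 and 9 Dnmt1 KO lay below the controls without overlap, on day 9 with snRNA sums of 3605.4 to 4299.8 RPM against 5668 to 6157 RPM. On day 11 the groups overlapped. On day 25 Dnmt1 KO lay above the controls again, at 6291.1 to 6365.6 RPM against 4620 to 6155.6 RPM. By group means the day 1 controls were also the lowest group of the time course for Snora16a (318 RPM) and SNORD28 (446 RPM). They were the highest for Mir183 (26727 RPM), CT010508.1 (16781 RPM), SNORD31 (4836.5 RPM) and Lancl2 (211.7 RPM). For AC113316.1, AL844840.2, Il1rapl1, Mir148a and Rab27a the day 1 controls were not at an extreme. Libraries of a day share their day, and what set the day 1 controls apart was not tested.

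**Figure D2:**
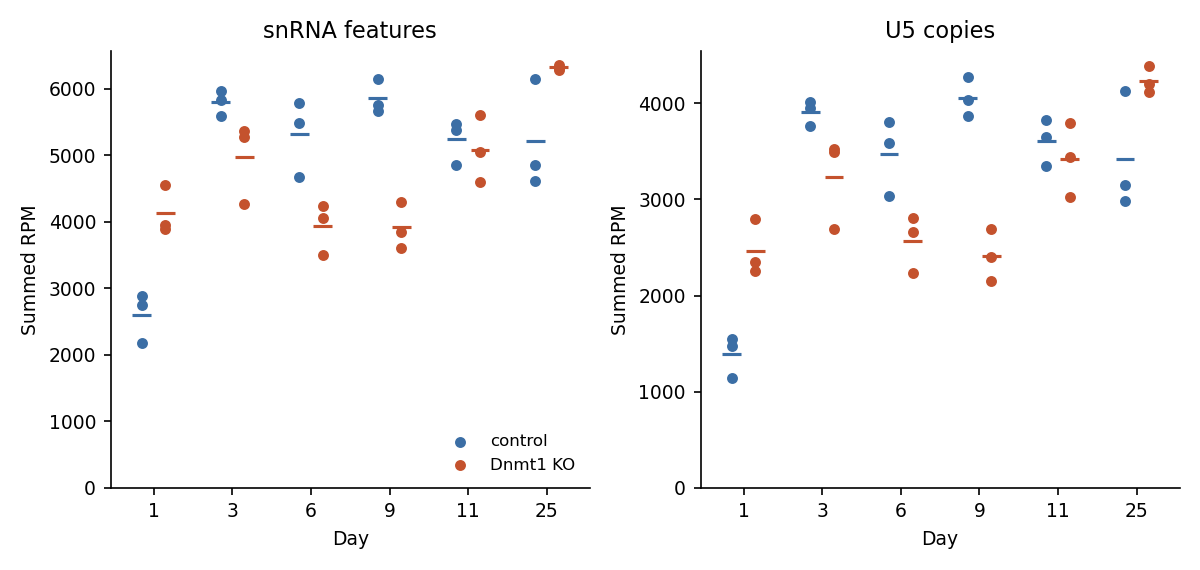
Summed RPM of all snRNA features (left) and of the U5 features (right) in each library, by day (horizontal axis), for control and Dnmt1 KO with 3 libraries each; horizontal lines are group means. The day 1 controls (2180 to 2888 RPM over all snRNAs) are the lowest libraries of the left plot.

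Among other RNAs made by RNA polymerase III or bound in small particles, single features seldom passed. By summed RPM, before the scaling of the fit, Y RNA was 1.13 times as high in Dnmt1 KO. By the same measure 7SK, the inhibitor of the elongation factor P-TEFb, was 1.63 times as high. In the fit the 3 tested Y RNA features had log2 fold changes of -0.08, 0.00 and 0.10, and none was called. The tested 7SK feature did not pass (log2 fold change 0.58, adjusted p = 0.0897, limma). Of 10 tested Y RNA, 7SK, 7SL, RNase P and vault features 1 was called, AL591712.1 inside Zmynd8 at 1.095, and it rested on 1 to 10 reads per control library. U3, the C/D snoRNA of pre-rRNA cleavage, had 1 of 2 tested features called (chr10:39978273-39978484, log2 fold change 0.48, adjusted p = 0.0113, limma), a call lost without control replicate 3 (adjusted p = 0.0685) and with Dnmt1 KO replicate 1 left out (0.219).

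Among snoRNAs the H/ACA class was the more one-sided. Of 70 tested H/ACA snoRNAs and scaRNAs 10 were higher, 0 lower, 50 lay above 0 and the median log2 fold change was 0.21. Of 145 tested C/D snoRNAs 13 were higher and 4 lower with a median of 0.03, against 0.02 for all features. Summed H/ACA reads stood at 3609.5 to 3876.8 RPM in the controls and 4379.7 to 4858.4 RPM in Dnmt1 KO. Snora16a, an H/ACA snoRNA of the host gene Snhg12, showed the clearest difference of its class, with 353.7, 332.1 and 268.8 RPM in the controls and 651.6, 499.2 and 519 RPM in Dnmt1 KO (log2 fold change 0.72, adjusted p = 0.000178, limma). Its call held without each library in turn. Scarna2, a guide of the Cajal body, rose by 0.82 on the log2 scale at 8.04 to 31.0 RPM, and lost its call without control replicate 3 (adjusted p = 0.305, limma) and with Dnmt1 KO replicate 1 left out (0.178).

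snoRNAs cut from introns of the same host transcript moved apart. The hosts described were chosen because they hold a called snoRNA. Snhg1, a noncoding host gene on chromosome 19, carries 8 tested snoRNAs. SNORD28 (chr19:8799358-8799433) stood at 550.9, 448 and 340 RPM in the controls and 869.3, 698.9 and 684.5 RPM in Dnmt1 KO (log2 fold change 0.68, adjusted p = 0.000178, limma). SNORD31 (chr19:8800084-8800150) stood at 4593, 4928 and 4989 RPM in the controls and at 3981, 3980 and 3996 RPM in Dnmt1 KO (log2 fold change -0.37, adjusted p = 0.00697, limma). Both differences left no overlap between the groups, and they run in opposite directions within 1 transcript. SNORD28 kept its call without each library, and SNORD31 lost it without control replicate 3 (adjusted p = 0.0675). The ratio of SNORD28 to SNORD31, which no scaling of libraries can move, was 0.120, 0.0909 and 0.0682 in the controls and 0.218, 0.176 and 0.171 in Dnmt1 KO. The pair was picked for its opposite calls, so the ratio is a description and adds no support. The other 6 snoRNAs of Snhg1 ranged from -0.14 to 0.22 and were not called.

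The host 2410006H16Rik gave another such pair. Snord65 rose from 291.2, 313.4 and 193 RPM in the controls to 493.2, 419.4 and 398.9 RPM in Dnmt1 KO (log2 fold change 0.65, adjusted p = 0.0021, limma). Snord49a, a neighbour of the same length with more reads, stood at 6608, 6711 and 6385 RPM against 5335, 5658 and 5878 RPM (log2 fold change -0.31, adjusted p = 0.0282, limma). The ratio of Snord65 to Snord49a was 0.0441, 0.0467 and 0.0302 in the controls and 0.0925, 0.0741 and 0.0679 in Dnmt1 KO. With both features apart in opposite directions this ratio could not overlap, so it adds no support. Both calls were lost without control replicate 3 (adjusted p = 0.0675 and 0.0738) and with Dnmt1 KO replicate 1 left out (0.0706 and 0.175, limma). By library totals Snord49a was not called either (adjusted p = 0.143).

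Other hosts held 1 called snoRNA beside uncalled ones. In Nop58, whose protein is itself a core component of C/D snoRNPs, SNORD11 rose by 0.80 while the other 3 tested snoRNAs lay between -0.08 and 0.20. In Nop56, which encodes another such protein, SNORA51 rose by 0.68 and Snord57, SNORD56 and Snord110 lay between -0.22 and -0.01. SNORD51 of the elongation factor gene Eef1b2 stood at 539.2, 549.9 and 433.1 RPM in the controls and 803.7, 701 and 719.8 RPM in Dnmt1 KO, and Snora41 of the same host at -0.04 did not pass. SNORD111 of Sf3b3, which encodes a splicing factor, rose by 0.57 beside Snord111 at 0.00. Among the 5 tested snoRNAs of Eif4a2 SNORA63 on chr16:23111374-23111502 rose by 0.69, and among the 5 of Taf1d SNORA18 rose by 0.48. Wdr43 had 2 of its 3 tested snoRNAs called, CT010429.1 at 0.45 and CT010429.3 at 0.49. Lower snoRNAs outside the pairs above included AC087117.3 of 1110038B12Rik at -0.30 and SNORD93, which lies in no tested host, at -0.42. None of the snoRNAs in this paragraph kept its call without control replicate 3 (adjusted p 0.0524 to 0.454) or without Dnmt1 KO replicate 1 (0.0714 to 0.424, limma).

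Ribosomal protein genes are common snoRNA hosts. In Rpl4, 4 of 5 tested snoRNAs were higher: SNORD18 on chr9:64024930-64025000 at 0.70, SNORD18 on chr9:64023678-64023748 at 0.54, SNORD16 at 0.80 and Snord16a at 0.50. Another SNORD18 of Rpl4, on chr9:64022855-64022922 and at 1669 RPM the one with the most reads of the 5, stood at 0.02. In Rpl13a, Snord32a rose by 0.65 while Snord33, Snord34 and Snord35a lay between -0.06 and 0.09. Snora52 of Rplp2 rose by 0.65 and Snora69 of Rpl39 by 1.53, the latter from 1 read in control replicate 3. In 1500012F01Rik, SNORD12 on chr2:166888973-166889065 fell by 0.35 on the log2 scale while the other 2 snoRNAs, at 0.41 and 0.34, did not pass. Of the snoRNAs in this paragraph, SNORD18 on chr9:64024930-64025000 alone kept its call both without control replicate 3 and with Dnmt1 KO replicate 1 left out (adjusted p = 0.00687 and 0.0261, limma), and SNORD16 kept it without the former only (0.00781 and 0.102). SNORD16 and Snord16a share 20-base stretches with each other, so their reads may be divided between them. Of the 56 called small RNA features compared, 23 share such a stretch with another tested feature.

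**Figure D3:**
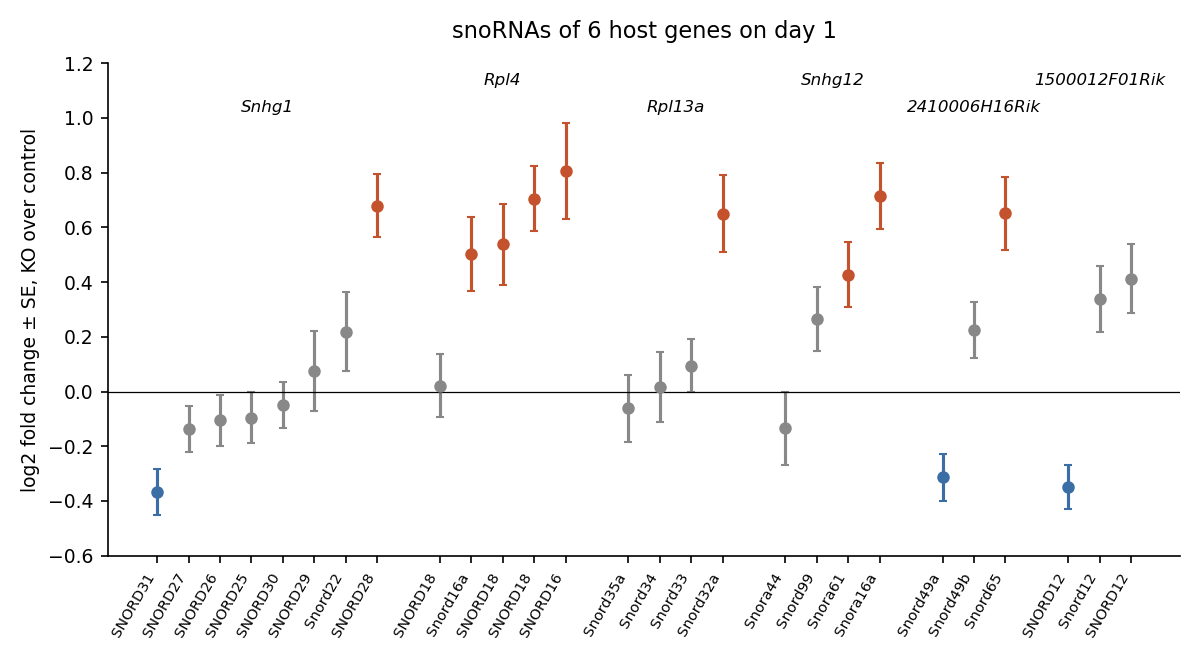
log2 fold change ± SE (vertical axis, Dnmt1 KO over control on day 1) of every tested snoRNA in 6 host genes, named above the points; orange points were called higher, blue points lower and grey points were not called. SNORD28 and SNORD31 of Snhg1 lie at 0.68 and -0.37.

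Of the 287 miRNA features tested, 118 lay above 0 and the median log2 fold change was -0.05. The sign of that median depended on the scaling, since it was 0.03 by library totals, 0.04 with TMM factors from all features and 0.06 in the libraries with the suffix R1. The median of all features was 0.02 in the scaling used and 0.10, 0.11 and 0.14 in those alternatives, above that of the miRNA features each time. Of the 49 with at least 1000 RPM, 6 were lower and 2 higher. Mir183 (chr6:30119668-30119737), of the cluster with Mir96 and Mir182 that is known from sensory cells and is abundant in ESCs, stood at 22917, 25855 and 31409 RPM in the controls and at 14957, 17616 and 18926 RPM in Dnmt1 KO. Every KO library lay below every control, with means of 26727 ± 4313 and 17166 ± 2022 RPM (SD, n = 3 each). The log2 fold change was -0.72 ± 0.12 (SE), with an adjusted p of 0.000128, and 0.00687 without control replicate 3 and 0.00591 with Dnmt1 KO replicate 1 left out (limma). Mir182, the feature with the most reads, and Mir96 lay at -0.31 and -0.32 and did not pass (adjusted p = 0.0623 and 0.307, limma). The ratio of Mir183 to Mir182 was 0.174, 0.185 and 0.191 in the controls and 0.129, 0.133 and 0.150 in Dnmt1 KO, without overlap, whereas the ratio of Mir96 to Mir182 overlapped.

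CT010508.1, which holds miR-191, stood at 14906, 15338 and 20099 RPM in the controls and at 10786, 12201 and 12791 RPM in Dnmt1 KO. The groups did not overlap (log2 fold change -0.57, adjusted p = 0.000785, limma), and the call held without each library. Mir148a, whose seed is shown above and whose family is known to target Dnmt1, stood at 11158, 12613 and 13680 RPM against 8775, 10543 and 9917 RPM (log2 fold change -0.45, adjusted p = 0.0106, limma). Mir99b stood at 2759, 2812 and 3492 RPM against 2174, 2258 and 2428 RPM (log2 fold change -0.48, adjusted p = 0.0172, limma). Both lost their call without control replicate 3 (adjusted p = 0.126 and 0.219) and with Dnmt1 KO replicate 1 left out (0.126 and 0.112). The remaining called miRNAs were smaller differences: Mir151 in Ptk2 at -0.32, Mir27b in 2010111I01Rik at -0.30, Mir141 at -0.58 and Mir30c-1 in Nfyc at -0.58, none called without control replicate 3 (adjusted p 0.171 to 0.327) or without Dnmt1 KO replicate 1 (0.107 to 0.237, limma). Mir151, Mir27b, Mir141 and Mir30c-1 were also not called under library totals (adjusted p 0.0687 to 0.112).

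Higher in Dnmt1 KO were AC113316.1, AL844840.2 and AC154124.1, the clone-named features shown above. AC113316.1 stood at 589.1, 466.2 and 440 RPM in the controls and at 1185, 1122 and 954.5 RPM in Dnmt1 KO, 2.18 times the control mean (log2 fold change 1.04, adjusted p = 2.68e-06, limma). AL844840.2 stood at 1366, 1226 and 1230 RPM against 2546, 2350 and 1880 RPM (log2 fold change 0.73, adjusted p = 0.000128, limma). AC154124.1 was the least variable, with 374.5, 329.8 and 340 RPM against 560.5, 540.8 and 551.5 RPM (log2 fold change 0.57, adjusted p = 0.00594, limma). All 3 held without each library in turn. What RNA their reads come from was not determined. No mature miRNA lies in them, and no full ribosomal RNA reference was searched, so whether they are rRNA fragments was not tested.

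Of named miRNAs Mir291b, Mir150 and Mir329 were higher. Mir291b, of the ESC-specific miR-290 to miR-295 cluster, stood at 1700, 1612 and 1249 RPM in the controls and at 2192, 2073 and 2031 RPM in Dnmt1 KO (log2 fold change 0.39, adjusted p = 0.026, limma). Mir150, known from mature lymphocytes, stood at 171.5, 181.1 and 112.6 RPM against 256.9, 236.6 and 230 RPM (log2 fold change 0.57, adjusted p = 0.00984, limma). Mir329, of the imprinted Dlk1-Dio3 region, rested on 8 to 71 reads a library (log2 fold change 0.67, adjusted p = 0.0163, limma). None of the 3 was called without control replicate 3 (adjusted p 0.117 to 0.299) or without Dnmt1 KO replicate 1 (0.0706 to 0.221).

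**Figure D4:**
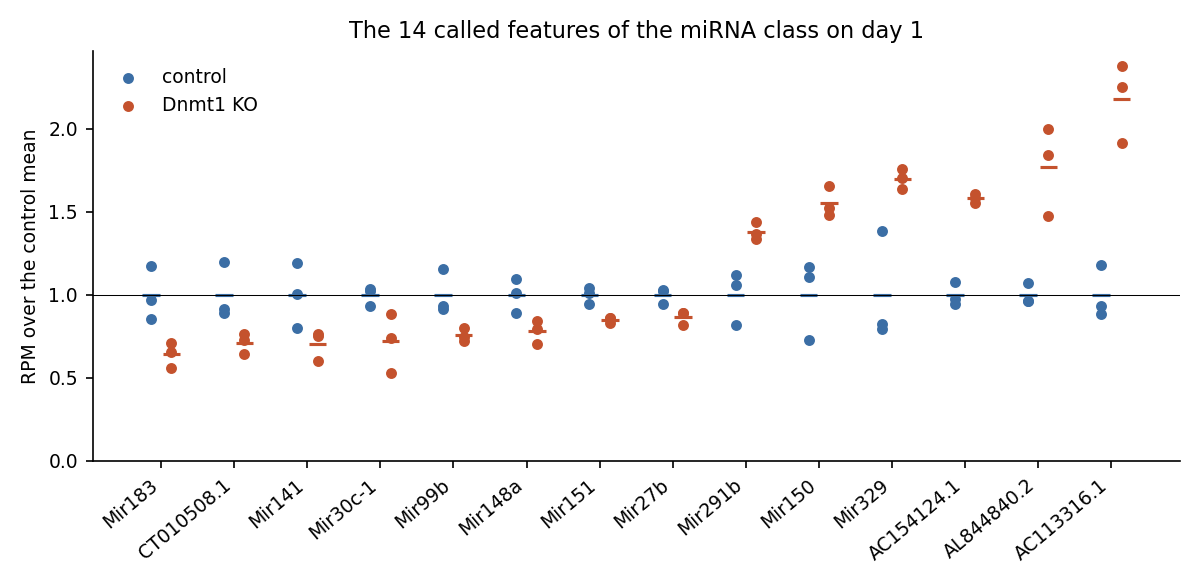
RPM of each library divided by the control mean (vertical axis) for the 14 called features of the miRNA class; blue points are controls, orange points Dnmt1 KO, and short lines the means of 3 libraries. The groups do not overlap in any of the 14, which were called on this difference.

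By cluster and family, 0 or 1 member was called in each list. With 3.8% of all features called, such counts set no family apart. The miR-290 to miR-295 cluster had 1 of 7 called and a median of 0.04, and its summed level was 122810, 120950 and 115770 RPM in the controls and 127580, 132060 and 128960 RPM in Dnmt1 KO. The cluster of Mir183, Mir96 and Mir182 had 1 of 3 called and a median of -0.32. The miR-200 family had 1 of 5 called (Mir141) and a median of 0.01, and the miR-29, miR-148 and miR-152 family list, which act on DNA methyltransferase mRNAs, 1 of 5 (Mir148a) and -0.18. The Dlk1-Dio3 miRNAs had 1 of 46 called (Mir329) and a median of 0.08. No member was called of miR-17-92 (6 tested, median -0.14), miR-106a-363 (6, -0.21), miR-106b-25 (3, -0.13), miR-302 with miR-367 (5, -0.19), let-7 (6, 0.09), the Sfmbt2-hosted miRNAs (8, 0.04), the X-linked testis-enriched miRNAs (9, 0.20), miR-34 (5, 0.02) or the mirtrons and other Microprocessor-independent miRNAs (5, -0.28). The medians stand beside 0.02 over all features tested. In the libraries with the suffix R1 the median of miR-17-92 was 0.04 and that of the mirtron list 0.33, so the sign of both turned.

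Reads over protein-coding genes partly repeat the small RNAs inside them. Cdk8, a kinase of the Mediator complex, rose by 0.84 on the log2 scale and contains AC113316.1. Ptk2 and 2010111I01Rik fell with Mir151 and Mir27b, and Clasp1, Eef1b2, Rplp2, Rpl39 and Sf3b3 rose with a snRNA or snoRNA inside them. Genes with a small RNA feature inside had 13 higher and 4 lower of 576 tested. Genes without one had 17 higher and 7 lower of 1433.

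Lancl2, which overlaps Vopp1, had the smallest adjusted p among genes that were lower. It stood at 214.1, 210.7 and 210.2 RPM in the controls and at 104.8, 123.8 and 147.9 RPM in Dnmt1 KO (log2 fold change -0.85, adjusted p = 0.000317, limma). Rpl3, the ribosomal protein gene that hosts Snord83b, came after Mir182 and Mir295 in reads, with 61191, 63492 and 65649 RPM against 43396, 47240 and 53912 RPM. Its groups were apart (log2 fold change -0.49, adjusted p = 0.024, limma), and the call was lost without control replicate 3 (0.136) or Dnmt1 KO replicate 1 (0.182). Snord83b itself had means of 2339 RPM in the controls and 2606 RPM in Dnmt1 KO. It was not called (log2 fold change 0.07, adjusted p = 0.8425, limma). Rab27a, a GTPase of vesicle transport, stood at 2905, 3156 and 3372 RPM against 2079, 2256 and 2756 RPM (log2 fold change -0.51, adjusted p = 0.00533), also lost without either library (0.0691 and 0.102). Zmiz1 fell by 1.196 on the log2 scale with at most 31 reads a library.

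Among genes that rose, Il1rapl1 stood at 240.8, 229.3 and 207.9 RPM in the controls and 419, 429.6 and 348.7 RPM in Dnmt1 KO (log2 fold change 0.72, adjusted p = 5.28e-05, limma). Lin7c rose by 1.00, Bai2 by 1.58 and Chst11 by 0.78 on the log2 scale. Filip1l and 2610528E23Rik overlap each other on opposite strands and shared nearly all their reads, so their 0.67 is 1 result. These genes kept their call without each library. The remaining genes that rose did so at lower levels or with a wider spread. Slc22a29 stood at 351.2, 355.5 and 297.5 RPM in the controls and at 638.3, 582 and 540 RPM in Dnmt1 KO (log2 fold change 0.72, adjusted p = 0.00932, limma). Ube3c, a ubiquitin ligase gene, had a KO mean 2.03 times the control mean, from 19.38, 18.59 and 19.53 RPM to 38.27, 42.34 and 35.95 RPM. Rpl34, Stra13, Fbxo36, Aatf and Hdgf had at most 16 reads in any control library, so their folds rest on few reads.

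The other gene lists held 0 or 1 called member each. Other imprinted genes had 1 of 12 called, Igf2r, the clearance receptor for IGF2, at 0.67 (adjusted p = 0.026, limma), from 81.88, 73.05 and 86.16 RPM in the controls to 165.1, 128.4 and 119.4 RPM in Dnmt1 KO. This gene overlaps its antisense RNA Airn, and whether the counting used strand is not given in the sources used here. It lost its call without control replicate 3 (adjusted p = 0.0623) and with Dnmt1 KO replicate 1 left out (0.29). Histone genes had 1 of 37 called, Hist1h2bg at -0.92 (adjusted p = 0.0106, limma), which kept its call without either of those libraries. Of 8 tested rRNA features 1 was called, AL807771.1 at 1.17 (adjusted p = 0.0111, limma), which lost its call without Dnmt1 KO replicate 1 (0.114), and their median was 0.36. No Dlk1-Dio3 gene was called of 4 tested, with Rian at 0.19, Meg3 at 0.39, Rtl1 at -0.23 and Mirg at -0.05, and Dlk1 did not reach the filter. None was called among DNA methylation genes (12 tested, median 0.06), small RNA machinery genes (13, 0.07), pluripotency genes (12, 0.07), p53 target genes (7, 0.26) and mitochondrial RNAs (24, 0.04), and no germline gene of 26 reached the filter.

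The miRNA share of reads was lower in Dnmt1 KO and the snRNA, misc_RNA and rRNA shares were higher, none passing after adjustment. miRNA features took 56.7% ± 1.40 (SD, n = 3) of reads in the controls and 54.2% ± 1.22 (SD, n = 3) in Dnmt1 KO (a KO minus control difference of -2.53 percentage points). The widest 95% Wilson interval of a library's share extended 0.104 percentage points to either side, and it covers counting error only. miRNA, snRNA, misc_RNA and rRNA features each had groups that did not overlap, with an exact two-sided permutation p of 0.1, the smallest possible, and 0.2 after adjustment over 8 classes. snoRNA shares overlapped at 17.4% ± 1.22 and 18.04% ± 0.834 (SD, n = 3 each). Features overlap, so the shares add to more than the whole.

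Markers of other cell types were looked at because feeder cells may be present. ESC miRNAs had 0 of 11 called, with summed levels of 115580 to 122280 RPM in the controls and 126380 to 131070 RPM in Dnmt1 KO, so the defining markers of ESCs were present in every library. Fibroblast miRNAs, the feeder markers, had 0 of 12 called and 1 of 13 at 0, with sums of 37451 to 39041 RPM against 39204 to 44709 RPM, so KO lay slightly above the controls. Mir21, Mir22 and Mir143 led them and their log2 fold changes were 0.00, 0.16 and 0.00. Blood cell miRNAs (Mir142, Mir150 and others, 2 of 5 tested) summed to 2140 to 2577 RPM against 1735 to 2135 RPM, with Mir150 called higher. Neuron and liver markers were at 0 in all 6 libraries, 3 of 4 muscle markers were at 0, and endoderm markers had 0 of 2 tested called with sums of 1024 to 1460 RPM against 912 to 1017 RPM. In bulk samples fewer cells of a type and less RNA per cell cannot be told apart, and the part of feeder cells in the differences was not tested.

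The day 1 differences were mostly not those of day 3. The effect itself differed between the days for 183 of 2582 features (7.09%), 94 with a higher and 89 with a lower effect on day 3, and for 67 of the 98 called on day 1. That contrast contains the day 1 effect that chose the 98, so the count over them is a description. Without Dnmt1 KO replicate 1 of day 3 the 183 became 106. Of the 74 features higher on day 1, 9 had a log2 fold change above 0 on day 3, with a median of -0.16, where 47.8% of all tested features were above 0. Of the 24 lower on day 1, 6 were below 0 on day 3, with a median of 0.08. The 10 called snRNAs all differed between the days. U5 copy C went from 0.98 to -0.16, AC113316.1 from 1.04 to -0.48 and Mir183 from -0.72 to -0.04.

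Over the later days the members split. Day 3 had 2 of the 98 called in the same direction and 6 in the opposite one. Calls in the opposite direction were the more frequent on day 6 (12 same, 21 opposite), day 9 (10 and 26) and day 11 (3 and 5), and day 25 had 39 in the same and 4 in the opposite direction. How many of all tested features were called on each of these days is not given here, so these counts are a description. Of the 74 features higher on day 1, 22, 25 and 40 lay above 0 on days 6, 9 and 11. Of all tested features 61.4%, 58.3% and 43.1% did. Of the 24 lower ones, 14, 9 and 8 lay below 0. On day 25, 50 of the 74 higher features lay above 0, where 49.8% of all tested features did, and 19 of the 24 lower ones lay below 0. AC113316.1 and AL844840.2 were called lower on day 3, at -0.48 and -0.41, and higher again on day 9, at 0.82 and 0.75, and on day 25, at 0.70 and 0.45. U5 copy C was called lower on days 6 and 9, at -0.44 and -0.81, and was not called on days 11 and 25. U5 copies A, E and F were called higher on day 25, at 0.44, 0.65 and 0.55, and 6 of the 10 snRNAs called on day 1 were. Mir183 was called lower on days 6, 9, 11 and 25, at -0.48, -0.43, -0.40 and -0.63. Rab27a and Mir99b, lower on day 1, were both called higher on days 6, 9 and 11, at 1.23, 1.13 and 0.63 for Rab27a and at 0.48, 0.68 and 0.42 for Mir99b. Rab27a was called higher on day 3 as well, at 0.50, and Mir99b lower on day 25, at -0.39. The days share no libraries. Against the mean effect of days 3, 6, 9 and 11, the day 1 effect differed for 427 features (16.5%), 86 of them among the 98.

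**Figure D5:**
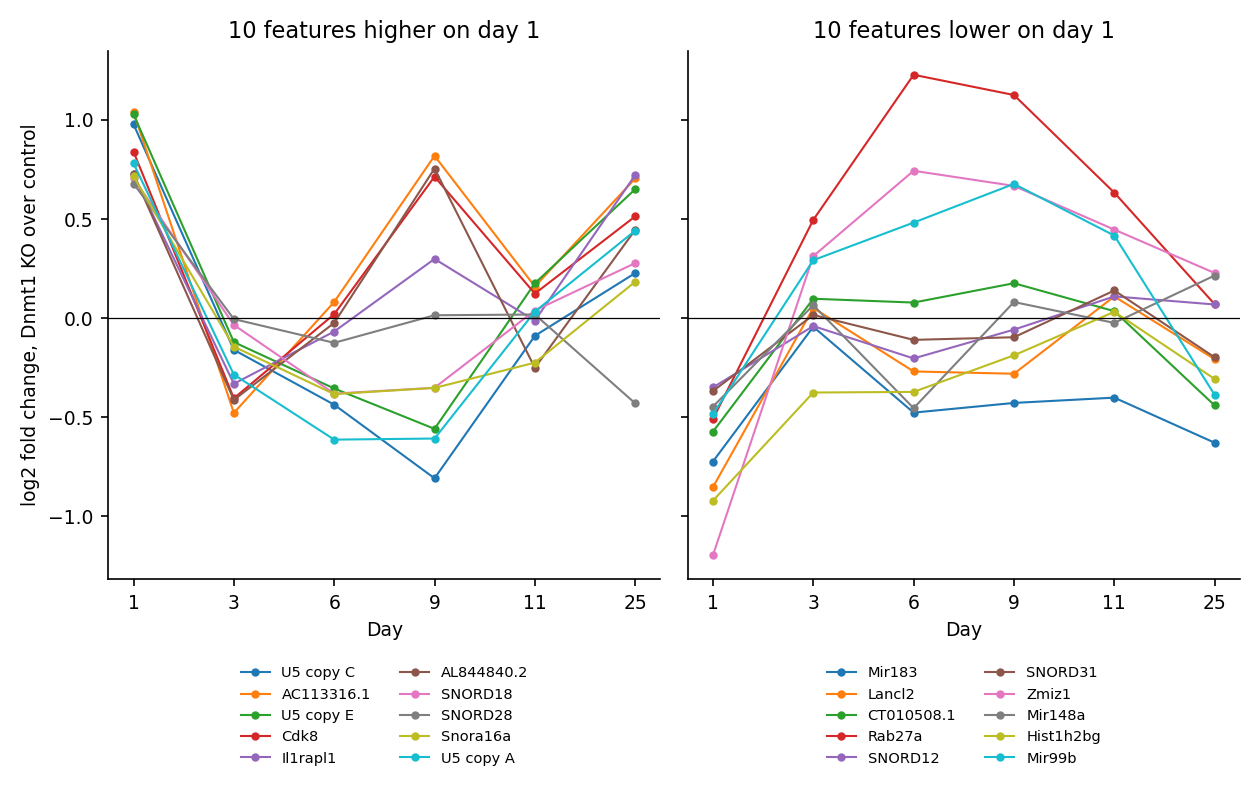
log2 fold change (vertical axis, Dnmt1 KO over control) by day (horizontal axis) for the 10 features with the smallest adjusted p among those higher (left) and those lower (right) on day 1. In the left plot all 10 lie below 0 on day 3, and in the right plot Rab27a reaches 1.23 on day 6.

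A further 6 libraries carry the same day 1 titles with the suffix R1, at 0.309 to 0.328 of the depth of their namesakes. Their deviations from the group mean correlated with the library of the same name at 0.0548 to 0.112 and with the others of the group at -0.0699 to -0.0118. They may hold reads of the same libraries and are no independent support, and their genotype tags go against their titles. Grouped by title, 94 of the 98 called features had the same sign in them, 47 were called in the same direction, and Rpl34, Zmiz1, Mir329 and Aatf had the opposite sign.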

How the data were processed

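Small RNA was sequenced in 83 libraries of ESCs and primordial germ cells, of which 6 ESC libraries are compared here. Per the labels and the study's methods, the authors trimmed reads (Trim Galore 0.3.5), kept miRNA-sized reads, mapped them to NCBIM37 (Bowtie2 2.2.9) and deposited RPKM values per annotated feature from SeqMonk; the counting settings are not given in the sources used here. RPKM times span gives RPM, and every low value was a whole number of reads within 5% of a step, so depth was read back. 32101 features matched GENCODE vM1 by position, and 12177 overlap another. Features with at least 10 RPM in at least 3 of the 36 time course libraries were tested by limma-trend (limma 3.58.1, R 4.3.3) on log2(RPM + 1), which understates low features, after TMM scaling (trims of 30% and 5%), with 1 mean per day and genotype. Since the deposited values are RPKM, the study's count model was not run, and voom on the reads read back was an alternative. Called means a Benjamini-Hochberg adjusted p under 0.05. The scaling and limma-trend steps were run on simulated reads for 6 day 1 libraries, not for the fit of all 36. That simulation gave every feature the same spread and held no deviant library. It therefore does not bear on how the calls depend on single libraries. Features were named by fixed rules: the 10 with the smallest adjusted p in each direction among those with groups apart, called miRNAs, called list members, the 3 members with the most reads of each list, genes of the Dlk1-Dio3 region and overlapping hosts. Further genes (Ube3c, Lin7c and the like) were named after their values were seen. The comparison, lists and tests were chosen with earlier results of these data known. Same-numbered libraries correlated at 0.0468, -0.0367 and 0.00374 in their deviations and are not treated as pairs.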

Additional observations from a re-analysis of the deposited data

Results flagged for a closer look

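The day 3 effect differed from the day 1 effect for 183 features by the test of the difference itself in limma, and 18 of 20 features named on day 1 were among them, the 10 with the smallest adjusted p in each direction among those with groups apart. Day 3 effect minus day 1 effect, on the log2 scale, was -1.14 for U5 copy C, -1.15 for U5 copy E and -1.07 for U5 copy A. It was -1.52 for AC113316.1, -1.24 for its host gene Cdk8, -1.14 for AL844840.2 and -1.06 for Il1rapl1. For the snoRNAs it was -0.74 for SNORD18, -0.68 for SNORD28, -0.86 for Snora16a and 0.38 for SNORD31. Among features lower on day 1 it was 0.68 for Mir183, 0.67 for CT010508.1, 0.51 for Mir148a, 0.78 for Mir99b, 0.90 for Lancl2, 1.00 for Rab27a and 1.51 for Zmiz1. These features were chosen on the day 1 effect, which enters the difference, so the values are a description.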

How the results depend on the processing

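The 98 calls among 2582 features on day 1 became 37 (3.32% of those tested) among features overlapping no other, 16 (5.57%) with miRNA features alone and 63 (0.261%) without a filter. The share called was 5.73% without day 25, more calls than before, and between 1.05% and 4.11% when 1 day 1 library was left out, with 27 calls without control replicate 3, and 32 when Dnmt1 KO replicate 1 was left out. A replicate block by the number in the title gave 106 calls (4.11%), and 201 (7.78%) with the day 1 libraries alone, an alternative chosen after seeing the data. All other settings gave 92 to 115, voom on reads 111 among them. The 183 differences between day 3 and day 1 became 83 (7.44%) without overlaps, 61 (21.3%) with miRNA features alone, 89 (0.369%) without a filter, 338 (13.1%) without day 25 and 106 (4.11%) to 233 (9.02%) when 1 library was left out (day 3 libraries chosen after seeing the data). The 427 differences from later days became 161 (14.4%) without overlaps and 128 (44.6%) with miRNA features alone. Without the 5 features with the most reads the miRNA share differed by -1.04 and the protein-coding share by 0.882 percentage points, the latter by 0.134 without overlaps. The rRNA share differed by 0.0228 points in the R1 libraries and 0.0105 without overlaps. In the R1 libraries Rpl34 (-0.87), Zmiz1 (0.42), Mir329 (-0.68) and Aatf (-0.89) reversed. Over called features, 1449 of 1893 alternative values kept direction and call, 440 lost the call and 4 reversed. The causes were not tested. Control replicate 3, with 870481 reads, limits what low features can show.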
